A study of Mus musculus with 3 samples.

Results

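S100a1, S100a4, S100a6, S100a8, S100a9, S100a10, S100a11 and S100a13 are the S100 genes described here, which were chosen by gene symbol from a table of 23997 genes. They are 8 of the 17 S100 genes in that table, and the whole set was measured in each of 3 RNA-seq libraries of colonic macrophages. S100 proteins are small proteins that bind calcium through EF-hand loops and mostly work as dimers, both inside cells, where they bind annexins, myosin and other targets, and outside them. In myeloid cells S100a8 and S100a9 form calprotectin, a heterodimer that withholds zinc and manganese from microbes, can signal through Toll-like receptor 4 and the receptor RAGE, and is measured in stool as a marker of gut inflammation. S100a4, S100a6, S100a10 and S100a11 are broadly expressed members linked to cell movement, membranes and plasminogen activation.

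The cells were taken from colons of untreated C57BL/6 males and sorted as CD64-positive cells that were low for Ly6C and negative for Siglec-F. The Tle4cKO library was made from mice with Tle4f/f and Lyz2-Cre, the library labelled Tle3cKO from mice with Tle3f/f and Lyz2-Cre, and the WT library from mice with Lyz2-Cre alone, so all 3 groups carry the Cre. Lyz2-Cre expresses Cre recombinase in myeloid cells, including neutrophils and macrophages, and Tle3 and Tle4 encode Groucho-family corepressors. Cells of 4 Tle4cKO, 3 Tle3cKO and 4 WT mice were pooled by genotype, so there was 1 library per group, and the labels give the age as 9 weeks in the protocol and 8.9 weeks in the sample records. The differences below thus have neither replicates nor a test.

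Values are FPKM as the authors deposited them, which divide by transcript length and by library depth, and they summed to 598023 in Tle4cKO, 569961 in the library labelled Tle3cKO and 610714 in WT. Judged by the step size of low values, the depth relative to WT was 1.21 for Tle4cKO and 0.968 for the library labelled Tle3cKO, and absolute depth is unknown. Differences are given on the log2(FPKM + 1) scale for 11114 genes whose mean reached 1 FPKM, a filter that all 8 S100 genes passed. The targeted gene Tle3 was at 46.9 FPKM in Tle4cKO, 70.7 in the library labelled Tle3cKO and 38.6 in WT, which goes against the label, although a gene-level value need not show the loss of some exons. Tle4 was at 5.80 FPKM in Tle4cKO, 11 in the library labelled Tle3cKO and 8.50 in WT. All 16 macrophage markers examined averaged at least 1 FPKM, with the highest means for Apoe at 8851, 8278 and 9287 FPKM and Cd14 at 1403, 1266 and 1302 FPKM in Tle4cKO, the library labelled Tle3cKO and WT. Other markers were low. In the same order Siglec1 was at 1.02, 0.765 and 1.26 FPKM, Mertk at 6.17, 7.65 and 4.46, and Lyz2 at 11.3, 11.7 and 10.4.

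All 8 genes lie on mouse chromosome 3, in separate groups of 6 and 2. By the positions in the files (mm10), the stretch from S100a1 to S100a9 is 185 kb long and also holds S100a13, S100a4, S100a6 and S100a8. S100a11 and S100a10 lie together 2825 kb further along, with 28.8 kb between them. No other row of the files overlapped any of the 8. Of the 8, 7 had a RefSeq promoter window (GRCm38.p6) of 250 bases before to 50 bases after the annotated start, and S100a10 had none. The sequences printed here are from 200 bases before the annotated start to 25 bases from it on, 5′ to 3′ on the gene's strand, for the calprotectin pair, for S100a4, which differed most between libraries, and for S100a11, the most abundant member. The last is the stretch shared by S100a1 and S100a13, which start on opposite strands with 104 bases between their starts. It is given on the plus strand, with 25 bases of each gene. Capitals mark every TATAAA and every GGGCGG.
S100a8, chr3:90668871-90669095, plus strand: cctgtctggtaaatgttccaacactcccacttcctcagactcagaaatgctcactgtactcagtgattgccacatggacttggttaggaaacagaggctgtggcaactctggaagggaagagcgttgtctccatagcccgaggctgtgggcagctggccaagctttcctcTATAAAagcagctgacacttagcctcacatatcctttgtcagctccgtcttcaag
S100a9, chr3:90695697-90695921, minus strand: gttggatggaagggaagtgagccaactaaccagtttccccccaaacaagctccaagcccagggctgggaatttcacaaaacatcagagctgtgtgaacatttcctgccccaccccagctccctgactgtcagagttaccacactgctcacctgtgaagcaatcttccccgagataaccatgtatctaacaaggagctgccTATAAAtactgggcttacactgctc
S100a4, chr3:90603570-90603794, plus strand: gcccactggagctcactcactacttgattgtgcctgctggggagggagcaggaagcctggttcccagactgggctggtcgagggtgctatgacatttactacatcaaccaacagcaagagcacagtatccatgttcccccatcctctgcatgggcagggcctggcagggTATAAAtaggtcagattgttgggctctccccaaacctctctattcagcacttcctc
S100a11, chr3:93520296-93520520, plus strand: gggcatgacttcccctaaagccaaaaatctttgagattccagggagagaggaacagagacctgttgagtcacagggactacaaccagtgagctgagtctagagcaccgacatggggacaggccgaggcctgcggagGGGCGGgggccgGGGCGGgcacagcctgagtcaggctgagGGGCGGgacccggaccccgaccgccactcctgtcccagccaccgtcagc
S100a1 and S100a13, chr3:90514306-90514459, plus strand: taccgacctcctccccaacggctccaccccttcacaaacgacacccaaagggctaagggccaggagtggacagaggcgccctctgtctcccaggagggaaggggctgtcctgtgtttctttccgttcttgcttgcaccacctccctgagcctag

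The windows of S100a8, S100a9 and S100a4 each held 1 TATAAA, the core of a TATA box, searched on both strands of the whole 300-base windows. It began at position -30 in S100a8, at -31 in S100a4 and at position 1 in S100a9, counted from the annotated start as position 1. Thus 3 of the 7 windows held this motif, against 13.6% of all 32851 RefSeq windows. S100a11 held 3 copies of GGGCGG, the GC box, at -64, -52 and -24, and S100a9 held a single copy at -223, outside the printed stretch, so 2 of 7 windows had it, against 35.7% of all windows. TGANTCA, the AP-1 motif, was found in S100a11 alone, at -136 and -38 (1 of 7, against 7.81%). Neither TATAAA nor GGGCGG was found in the windows of S100a1, S100a13 and S100a6. TGTGGT, a motif bound by RUNX factors, was in 2 of 7 windows (S100a6 and S100a9, against 16.8%), and CACGTG was in 2 of 7 (S100a6 and S100a11, against 7.15%). None of the motifs overlapped another within these windows.

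The S100 genes were abundant in every library and spanned a wide range of levels. Their summed FPKM was 1907 in Tle4cKO, 1972 in the library labelled Tle3cKO and 1990 in WT, or 0.319%, 0.346% and 0.326% of each library's total. S100a11 alone made up 49.5% of that sum in Tle4cKO, 48.2% in the library labelled Tle3cKO and 45.0% in WT. By mean level over the 3 libraries S100a11 ranked 95th and S100a13, the lowest of the 8, 2948th of all 23997 genes. In each library the order began with S100a11 and S100a10 and ended with S100a1 and S100a13. The middle of the order differed: S100a6 stood above S100a4 in Tle4cKO alone, and S100a9 stood above S100a8 in WT alone.

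**Figure D1:**
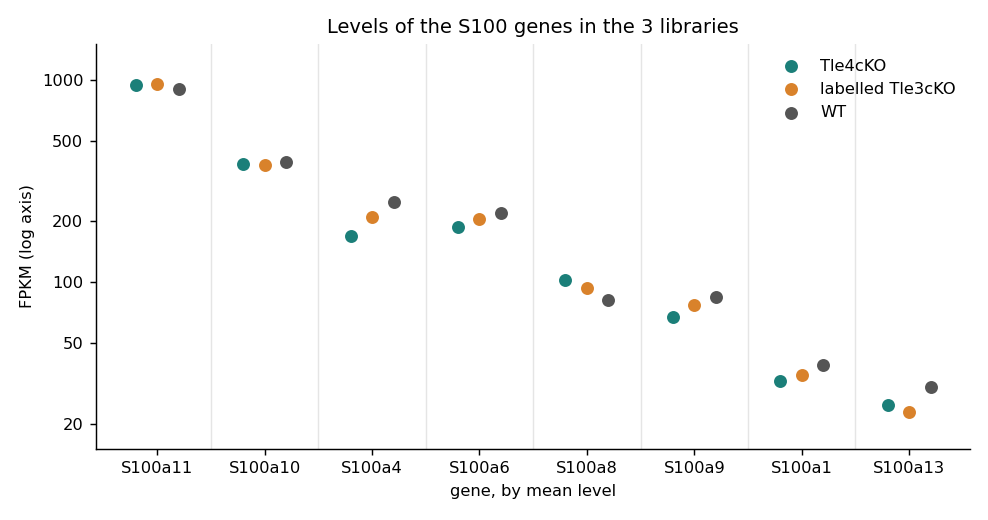
FPKM (log axis) of the 8 S100 genes, ordered by mean level, with 1 point for each library (Tle4cKO, the library labelled Tle3cKO and WT from left to right). S100a11 lies between 896 and 950.1 FPKM and S100a13 between 22.9 and 30.3, and the points of S100a4 are the most widely spread.

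None of the 8 S100 genes reached a 2-fold difference in any of the 3 comparisons. In Tle4cKO against WT 0 of 8 did, where 0.648% of all genes tested reached 2-fold in either direction, and 0 of 8 reached 1.5-fold, against 2.91% of all genes. In the library labelled Tle3cKO against WT 0 of 8 reached 2-fold (0.423% of all genes) and 0 of 8 reached 1.5-fold (2.68%). Between Tle4cKO and the library labelled Tle3cKO 0 of 8 reached 2-fold (0.729%) and 0 of 8 reached 1.5-fold (3.03%). At shares this low a set of 8 genes would usually hold none. S100a4 in Tle4cKO came closest to the 1.5-fold limit, at 0.673 times its WT level. The differences of the 8 genes are thus under 1.5-fold, and without replicates they cannot be set against any spread between mice.

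Most of the S100 genes were lower than in WT. In Tle4cKO 6 of 8 lay below WT, where 50.6% of all genes did, with a median log2 difference of -0.24 against -0.003 over all genes tested. In the library labelled Tle3cKO 6 of 8 lay below WT as well, where 52.4% of all genes did, with a median of -0.11 against -0.01 over all genes. All 8 average over 20 FPKM, and of the 3637 genes at that level 63.9% lay below WT in the library labelled Tle3cKO, with a median of -0.04, and 49.1% did in Tle4cKO, with a median of 0.003. With libraries scaled to equal totals 4 of 8 lay below WT in the library labelled Tle3cKO, and their median was -0.01, while that of all genes tested was 0.08. Between Tle4cKO and the library labelled Tle3cKO 5 of 8 were lower in Tle4cKO, where 47.6% of all genes were. Their median was -0.06 against 0.009 over all genes. Of the 3637 genes averaging at least 20 FPKM, 34.9% were lower in Tle4cKO, with a median of 0.05. With equal totals 6 of 8 were lower, and their median was -0.12, while that of all genes tested was -0.05. Both comparisons with WT use the same WT library, so their directions are not independent.

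**Figure D2:**
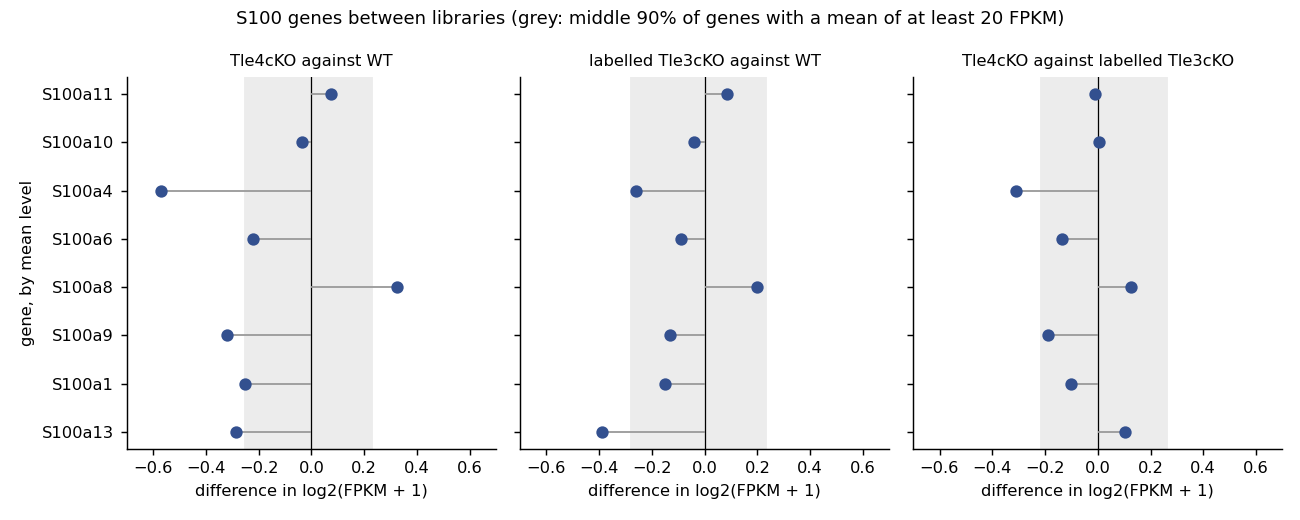
Difference in log2(FPKM + 1) of the 8 S100 genes in the 3 comparisons, with the grey band spanning the 5th to the 95th percentile of the 3637 genes averaging at least 20 FPKM. S100a4 has the lowest point in Tle4cKO against WT (-0.57), S100a8 the highest (0.32), and S100a10 and S100a11 stay near 0.

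S100a8 and S100a9, the chains of calprotectin, differed between libraries in opposite directions. S100a8 (ENSMUSG00000056054.9, chromosome 3, 90669071 to 90670034) was at 102 FPKM in Tle4cKO, 93.5 in the library labelled Tle3cKO and 81.4 in WT. It was thus highest in Tle4cKO and lowest in WT, with log2 differences from WT of 0.32 in Tle4cKO and 0.20 in the library labelled Tle3cKO. S100a9 (ENSMUSG00000056071.12, chromosome 3, 90692630 to 90695721) was at 67.0 FPKM in Tle4cKO, 76.6 in the library labelled Tle3cKO and 84.0 in WT, the reverse order. Its log2 differences from WT were -0.32 in Tle4cKO and -0.13 in the library labelled Tle3cKO. The ratio of S100a8 to S100a9 within a library, which does not depend on how libraries are scaled, was 1.52 in Tle4cKO, 1.22 in the library labelled Tle3cKO and 0.969 in WT. Of the 3637 genes averaging at least 20 FPKM, a limit chosen after the values were seen, 4.67% differed at least as much as S100a8 between Tle4cKO and WT in either direction, and 4.70% at least as much as S100a9. Between the library labelled Tle3cKO and WT these shares were 19.1% and 35.9%, so differences of that size were common. With equal totals the S100a9 difference there was -0.03.

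**Figure D3:**
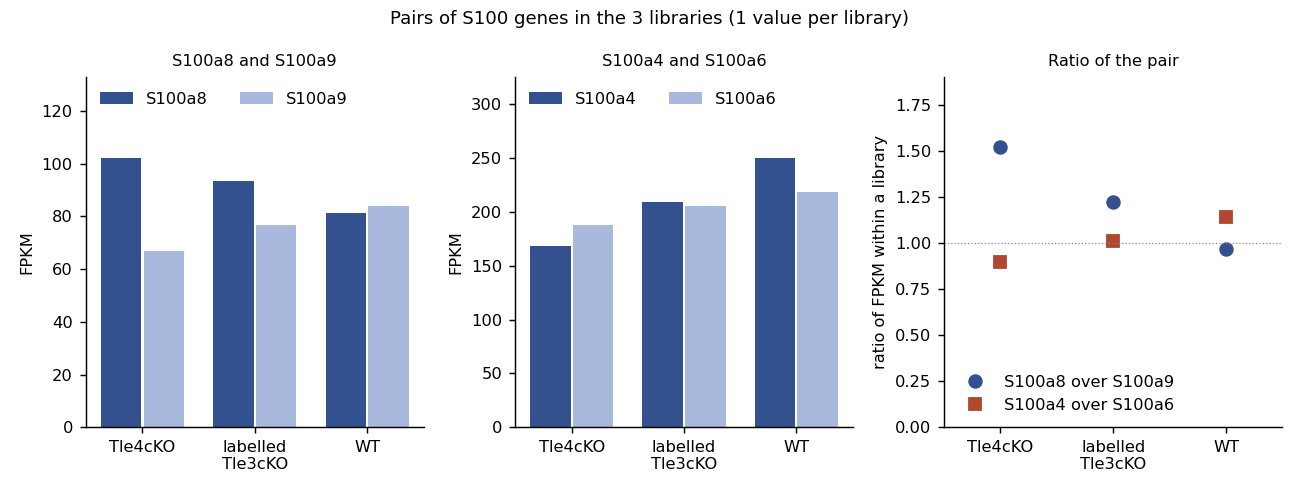
FPKM of S100a8 with S100a9 (left) and of S100a4 with S100a6 (middle) as bars from 0, and the ratio within each pair (right), with 1 value for each library in the order Tle4cKO, labelled Tle3cKO, WT. The S100a8 to S100a9 ratio is 1.52, 1.22 and 0.969 in that order, and the S100a4 to S100a6 ratio is 0.897, 1.01 and 1.14.

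Neutrophils, which carry very large amounts of calprotectin, were marked in these libraries by few genes. Of the 24 neutrophil markers listed, 22 were matched to a row and 13 of these were under 1 FPKM in all 3 libraries. The granule genes Camp and Ctsg were listed at 0 in all 3, and Mpo, myeloperoxidase, was at 0.122 FPKM in Tle4cKO, 0.201 in the library labelled Tle3cKO and 0.0978 in WT. The list summed to 57.7 FPKM in Tle4cKO, 61.3 in the library labelled Tle3cKO and 56.9 in WT, most of it from AA467197 and the G-CSF receptor gene Csf3r. Retnlg, a resistin-like protein of neutrophils, was at 2.05 FPKM in Tle4cKO, 4.55 in the library labelled Tle3cKO and 4.80 in WT, and the neutrophil collagenase Mmp8 was at 0.844, 1.83 and 2.72. Stfa2l1, a stefin gene, and Gm5483 were both lowest in WT, at 0.719, 3.21 and 0.441 FPKM and at 1.76, 1.81 and 0.435 FPKM in Tle4cKO, the library labelled Tle3cKO and WT. Retnlg and Mmp8 thus had the order of S100a9, as did Csf3r, at 18.0, 18.2 and 19.7 FPKM, and Lcn2, at 0.977, 1.32 and 1.87. Stfa2l1, Gm5483 and Cxcr2 had neither order, the last at 1.36, 1.16 and 1.35 FPKM. Only AA467197 among the genes averaging 1 FPKM or more had that of S100a8, at 29.4 FPKM in Tle4cKO, 26.7 in the library labelled Tle3cKO and 22.6 in WT. Few orders of 3 libraries are possible, and some rest on small steps, as for Csf3r. The share of all genes with each order was not computed, here or for the monocyte genes below. Of the 8 neutrophil genes that averaged 1 FPKM or more, 4 were lower and 4 higher in Tle4cKO than in WT, and 5 were lower and 3 higher in the library labelled Tle3cKO. The part of these cells in the S100a8 and S100a9 values was not tested.

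Monocytes, the other main source of calprotectin, were represented by 16 listed genes, all of which had a mean of at least 1 FPKM. Their sum was 2432 FPKM in Tle4cKO, 2220 in the library labelled Tle3cKO and 2367 in WT, mostly from Thbs1, which was at 1966, 1753 and 1886. Ccr2, the receptor that draws monocytes into tissue, was at 28.3 FPKM in Tle4cKO, 12.3 in the library labelled Tle3cKO and 28.3 in WT, an order that neither calprotectin chain had. Chil3, a chitinase-like protein of monocytes, was at 0.083 FPKM in Tle4cKO, 0.989 in the library labelled Tle3cKO and 2.5 in WT, in the order of S100a9. Itgam, at 77.4, 85.6 and 92.5 FPKM, and Vcan, at 5.91, 6.91 and 6.94 FPKM, had the order of S100a9 too. Plac8 alone had that of S100a8, at 156, 150.4 and 146 FPKM. F13a1, a coagulation factor chain, was at 12.7, 17.5 and 10.6 FPKM, in neither order, like the rest of the list. Of the 16 genes 7 were lower and 9 higher in Tle4cKO than in WT, and 8 were lower and 8 higher in the library labelled Tle3cKO, so the list as a whole had no single direction. The part of monocytes in the S100a8 and S100a9 values was not tested. In pooled bulk RNA, fewer cells of a type and less RNA per cell cannot be told apart.

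S100a4, also called metastasin, binds non-muscle myosin and is linked to cell movement, and it differed most of the 8 genes. It (ENSMUSG00000001020.8, chromosome 3, 90603770 to 90606045) was at 168 FPKM in Tle4cKO, 209 in the library labelled Tle3cKO and 249.9 in WT. The level in Tle4cKO was 0.673 times that in WT, a log2 difference of -0.57, and the level in the library labelled Tle3cKO was 0.835 times that in WT, a difference of -0.26. Of the 3637 genes averaging at least 20 FPKM, 1.29% differed at least as much between Tle4cKO and WT, and 10.8% at least as much between the library labelled Tle3cKO and WT. Between Tle4cKO and the library labelled Tle3cKO the log2 difference was -0.31, a size that 5.50% of those genes reached. In the GENCODE annotation 47.4% of the 50-base stretches of the S100a4 transcripts also occur in Gm42674, so some fragments could fit either gene of that annotation. How the deposited values treat such fragments was not examined. Values for that gene are not analysed here.

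S100a6, or calcyclin, lies next to S100a4 apart from the little-expressed S100a5 and differed less. It (ENSMUSG00000001025.8, chromosome 3, 90612894 to 90614414) was at 187 FPKM in Tle4cKO, 206 in the library labelled Tle3cKO and 219 in WT. The libraries stood in the same order as for S100a4, with log2 differences from WT of -0.22 in Tle4cKO and -0.09 in the library labelled Tle3cKO, the second of which was 0.01 with equal totals. The ratio of S100a4 to S100a6 was 0.897 in Tle4cKO, 1.01 in the library labelled Tle3cKO and 1.14 in WT.

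S100a10 and S100a11, which bind annexins, were nearly level across the libraries. S100a10 (ENSMUSG00000041959.14, chromosome 3, 93555117 to 93564645), also called p11, forms a complex with annexin A2 that serves as a plasminogen receptor at the cell surface. It was at 382 FPKM in Tle4cKO, 380.2 in the library labelled Tle3cKO and 391 in WT. Its log2 differences were -0.04 in each comparison with WT and 0.005 between Tle4cKO and the library labelled Tle3cKO, and with equal totals that of the library labelled Tle3cKO from WT was 0.06 and that of Tle4cKO from the library labelled Tle3cKO was -0.06. S100a11 (ENSMUSG00000027907.4, chromosome 3, 93520496 to 93526288), a partner of annexin A1, was at 944 FPKM in Tle4cKO, 950.1 in the library labelled Tle3cKO and 896 in WT. Its log2 differences from WT were 0.08 in Tle4cKO and 0.09 in the library labelled Tle3cKO. Of the 50-base stretches of the S100a11 transcripts, 41.1% also occur in other annotated genes, among them the processed pseudogene Gm12854, so its fragments can fit several places in the genome. The 6 S100 genes other than S100a4 and S100a11 shared no such stretch with another gene.

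S100a1 and S100a13, whose start sites face away from each other across the short stretch printed above, were the lowest of the 8 and lower than in WT in both other libraries. S100a1 (ENSMUSG00000044080.9, chromosome 3, 90511034 to 90514330), best known in heart muscle for its effect on calcium cycling, was at 32.3 FPKM in Tle4cKO, 34.8 in the library labelled Tle3cKO and 38.7 in WT. Its log2 differences from WT were -0.25 in Tle4cKO and -0.15 in the library labelled Tle3cKO. S100a13 (ENSMUSG00000042312.9, chromosome 3, 90514435 to 90524581) takes part in the release of interleukin-1 alpha and fibroblast growth factor 1 by a route that bypasses the secretory pathway. It was at 24.7 FPKM in Tle4cKO, 22.9 in the library labelled Tle3cKO and 30.3 in WT, so its lowest level was in the library labelled Tle3cKO, unlike that of S100a1. The log2 differences of S100a13 from WT were -0.29 in Tle4cKO and -0.39 in the library labelled Tle3cKO, sizes reached by 6.10% and 3.82% of the genes averaging at least 20 FPKM. Its cargo gene Il1a was at 23.8 FPKM in Tle4cKO, 27.6 in the library labelled Tle3cKO and 20.7 in WT, higher than in WT in both, while Fgf1 was at most 0.238 FPKM.

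Along the chromosome the differences did not form a single block. Chtop, an RNA export factor gene just outside the S100a1 end, was at 56.5 FPKM in Tle4cKO, 56.6 in the library labelled Tle3cKO and 51.3 in WT, a log2 difference of 0.14 from WT in both. S100a1, S100a13, S100a4 and S100a6 lay below WT in both other libraries, and so did S100a9, next in line after S100a8. Of the S100 genes described here only S100a8 in this stretch lay above WT in both. S100a16, between S100a13 and S100a4, differed from WT by -0.79 in Tle4cKO and by 0.38 in the library labelled Tle3cKO. The little-expressed neighbours S100a14, S100a2, S100a3, S100a5 and S100a7a lay among them, each under 1 FPKM in all 3 libraries.

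**Figure D4:**
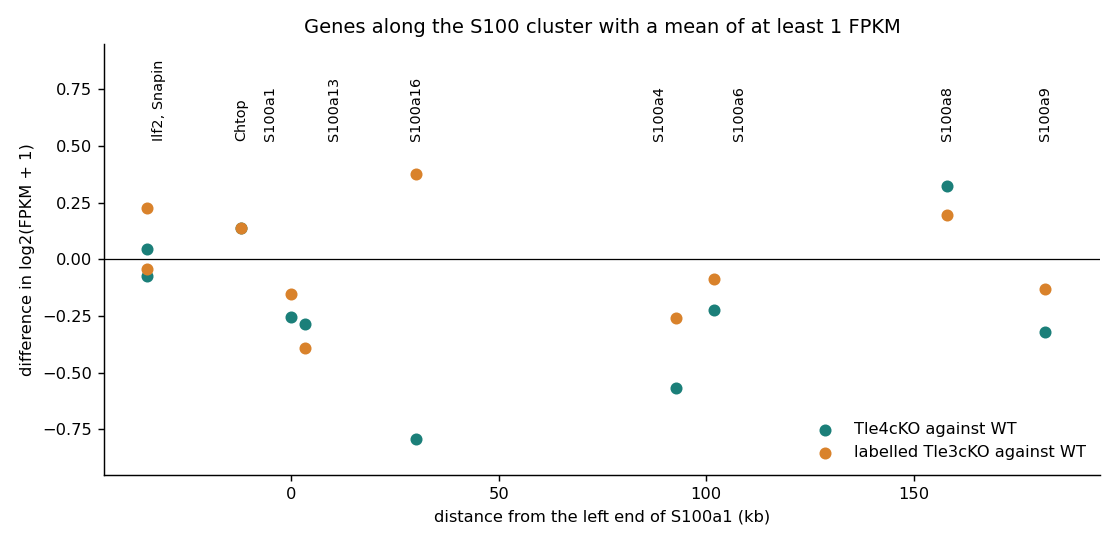
Difference in log2(FPKM + 1) from WT of Tle4cKO and of the library labelled Tle3cKO for each gene with a mean of at least 1 FPKM, placed by its distance in kb from the left end of S100a1. S100a8 is above 0 (0.32 and 0.20) between S100a6 and S100a9, which are below 0, and S100a16 has the lowest point (-0.79 in Tle4cKO).

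The other 9 S100 genes were low, and only S100a16 and S100b had a mean of at least 1 FPKM. S100a16 (chromosome 3, 90541223 to 90543151) was at 3.41 FPKM in Tle4cKO, 8.92 in the library labelled Tle3cKO and 6.63 in WT. Its log2 difference between Tle4cKO and the library labelled Tle3cKO was -1.17, past 2-fold, as were 0.729% of all genes tested in either direction, and its difference from WT was -0.79 in Tle4cKO and 0.38 in the library labelled Tle3cKO. S100b, on chromosome 10 and typical of glia, was at 0.514 FPKM in Tle4cKO, 1.64 in the library labelled Tle3cKO and 1.45 in WT. The 12 enteric glial markers listed summed to 15.9 FPKM in Tle4cKO, 46.4 in the library labelled Tle3cKO and 47.1 in WT. Their part in the values of S100b and S100a16 was not tested. S100g, S100z and S100a2 were listed at 0 in all 3 libraries.

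Markers of other cells that express S100 genes also differed between libraries. The 16 epithelial markers summed to 50.3 FPKM in Tle4cKO, 10.7 in the library labelled Tle3cKO and 5.04 in WT, led in Tle4cKO by the goblet cell gene Spink4 at 18.6 FPKM. The 17 fibroblast, endothelial and smooth muscle markers summed to 304, 321 and 272 FPKM, the 12 dendritic cell markers to 505, 399 and 465 FPKM, the 15 matched T, NK and innate lymphoid markers to 419, 441 and 426 FPKM, the 12 B and plasma cell markers to 499, 349 and 279 FPKM, and the 12 eosinophil, mast cell and basophil markers to 5.08, 5.43 and 6.74 FPKM, each in the order Tle4cKO, labelled Tle3cKO and WT. Single genes carried much of several sums, as Ccr7 did among the dendritic cell markers, at 316, 216 and 305 FPKM, and Il7r among the T, NK and innate lymphoid markers, at 332, 342 and 337 FPKM. The T cell receptor component Cd3e was at 1.70 FPKM in Tle4cKO, 1.55 in the library labelled Tle3cKO and 0.401 in WT, while Cd4 was at 62.5, 72.8 and 71.8. Of the 7 T, NK and innate lymphoid genes averaging 1 FPKM or more, 4 were lower and 3 higher in Tle4cKO than in WT. In the library labelled Tle3cKO 1 was lower and 6 were higher. The part of these cells in the S100 values was not tested.

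Of the partners and receptors of S100 proteins, 23 of 27 had a mean of at least 1 FPKM. None of these reached 2-fold in Tle4cKO against WT (0.648% of all genes tested), in the library labelled Tle3cKO against WT (0.423%) or between Tle4cKO and that library (0.729%). Mcam and Plat reached 1.5-fold in Tle4cKO against WT (2.91% of all genes). Anxa1 did so in the library labelled Tle3cKO against WT (2.68%), and Mcam between Tle4cKO and that library (3.03%). In Tle4cKO 12 of 23 lay below WT and 11 above (median log2 difference -0.009), where 50.6% of all genes lay below. In the library labelled Tle3cKO 14 lay below and 9 above (median -0.04). There 52.4% of all genes lay below, and 63.9% of those averaging at least 20 FPKM. Anxa2, which encodes the partner of S100a10, was at 339 FPKM in Tle4cKO, 362 in the library labelled Tle3cKO and 322 in WT, so that the ratio of S100a10 to Anxa2 was 1.12, 1.05 and 1.21 in the same order. Anxa1, which encodes the partner of S100a11 and a mediator that dampens inflammation, was at 119.8 FPKM in Tle4cKO, 153 in the library labelled Tle3cKO and 97.9 in WT, with log2 differences from WT of 0.29 in Tle4cKO and 0.64 in the library labelled Tle3cKO. Ahnak, a giant scaffold protein that binds the complex of S100a10 and annexin A2, was at 69.7 FPKM in Tle4cKO, 78.0 in the library labelled Tle3cKO and 58.0 in WT. Anxa1, Ahnak and Anxa2 were thus all highest in the library labelled Tle3cKO and lowest in WT, an order that S100a11 had with smaller differences and S100a10 did not have. The other listed annexin genes did not have it either. Anxa11 was at 196 FPKM in Tle4cKO, 181 in the library labelled Tle3cKO and 187 in WT, and Anxa6 at 41.2, 39.2 and 41.2. The share of all genes with that order was not computed.

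Among the other partners, Myh9, the non-muscle myosin heavy chain bound by S100a4, was at 106 FPKM in Tle4cKO, 94.4 in the library labelled Tle3cKO and 106 in WT. Cacybp, the calcyclin-binding protein named for S100a6, was at 23.4, 23.0 and 22.7 FPKM in the same libraries. Of the receptors for calprotectin, Tlr4 was at 14.7 FPKM in Tle4cKO, 13.5 in the library labelled Tle3cKO and 15.6 in WT, and Ager, which encodes RAGE, was under 1 FPKM throughout. Cybb and Cyba, the membrane subunits of the phagocyte NADPH oxidase to which calprotectin delivers arachidonic acid, differed from WT by at most 0.12 on the log2 scale. The lowest partners above the filter, Mcam and the plasminogen activator gene Plat, were lower in Tle4cKO: Mcam was at 3.61 FPKM in Tle4cKO, 7.08 in the library labelled Tle3cKO and 6.55 in WT, and Plat was at 4.31, 6.91 and 7.10.

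**Figure D5:**
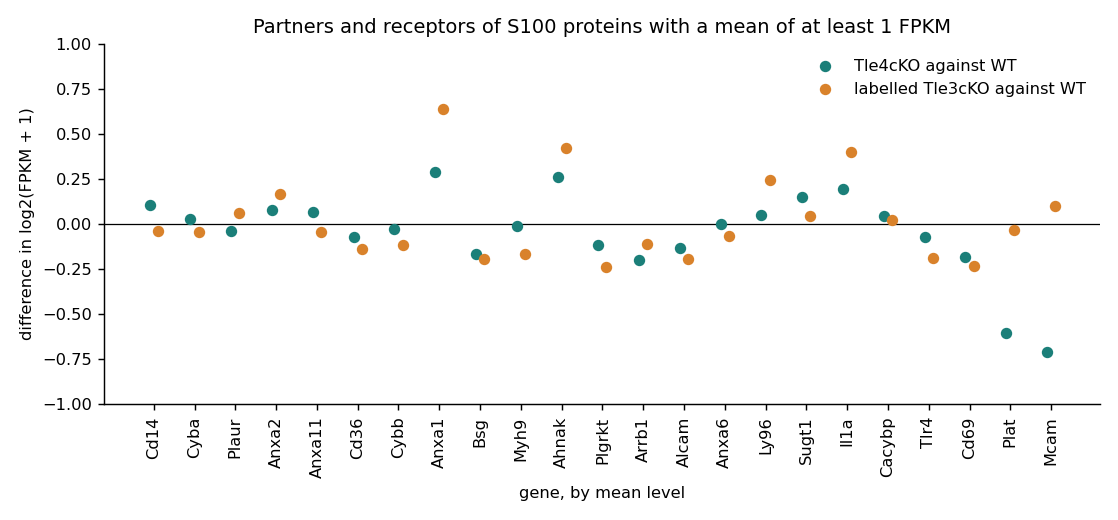
Difference in log2(FPKM + 1) from WT of Tle4cKO and of the library labelled Tle3cKO for the 23 partners and receptors of S100 proteins with a mean of at least 1 FPKM, ordered by mean level. Anxa1 has the highest point (0.64 in the library labelled Tle3cKO) and Mcam the lowest (-0.71 in Tle4cKO).

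Genes with the most similar pattern were found for the 4 S100 genes whose log2 values spanned at least 0.3 over the 3 libraries, as the smallest Euclidean distance between centred log2(FPKM + 1) values among 7305 genes averaging at least 5 FPKM, without the S100 genes themselves and leaving out genes with placeholder names, small RNA genes and receptor segments. With only 3 libraries many genes come close, and the likeness is a description. For S100a8 they were Lrrc32, Lsm2 and Cbx3 (distances 0.00016, 0.0036 and 0.010), with Lrrc32 at 18.7 FPKM in Tle4cKO, 17.1 in the library labelled Tle3cKO and 14.8 in WT. For S100a9 they were Abcb1b, Siglece and Pparg (0.0066, 0.0093 and 0.014), with Pparg, a nuclear receptor gene, at 18.9, 21.5 and 23.5 FPKM. For S100a4 they were Dmap1, Dnajb1 and Irgm1 (0.019, 0.029 and 0.029), with the heat shock protein gene Dnajb1 at 52.9, 66.6 and 77.7 FPKM. For S100a13 they were Trim30a, Hsd17b4 and Naaa (0.016, 0.019 and 0.019), with Naaa at 20.3, 19 and 25.4 FPKM.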

How the data were processed

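RNA from sorted mouse colonic macrophages was measured by RNA-seq, with 1 library for each of 3 genotypes named in the sample titles. The authors deposited FPKM per gene, per the file headers. TopHat2 2.1.0, Cufflinks 2.2.1 and build mm10 are named in the submitters' processing notes without their roles. Read number, read length and strandedness are not stated there, so no counting interval was computed, and reads from antisense genes cannot be told apart. Starts in the files count from 0 and were raised by 1. All 8 S100 genes have short transcripts (417 to 715 bases).

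Differences are of log2(FPKM + 1), tested on simulated data, with no test between groups. Members and gene lists were chosen with earlier results of these data known. Named genes were the members, the listed partners and other S100 genes, up to 4 genes per marker list by difference and 4 by level, the targeted genes, and the 3 most alike genes. Chtop, Camp, Ctsg, Mpo, Lcn2, Cxcr2, Vcan and Lyz2 were named after their values were seen, and Gm42674 and Gm12854 for the sequence they share with S100a4 and S100a11. Identifiers are from GENCODE M21 and promoter sequences from RefSeq (GRCm38.p6). Other pseudocounts (0.1 and 5), filters (none, and 5 FPKM), 3 scalings, 1.5-fold and 3-fold thresholds and a correction for transcript length were tried. Scripts ran in Python (3.11.15) and used pandas (2.3.3), numpy (2.4.6) and matplotlib (3.10.9).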

Additional observations from a re-analysis of the deposited data

How the results depend on the processing

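None of the 8 S100 genes passed the threshold in any comparison under any alternative run, including the correction for transcript length, which was chosen after seeing the data. All 192 alternative values of the 24 log2 differences moved by less than 0.1, a limit set here because no replicate spread exists. This count says little about robustness, since a change of filter cannot alter the difference of a gene that passes it. Equal totals shifted all genes by about the same amount, in the library labelled Tle3cKO against WT close to the limit. There S100a11 went from 0.09 to 0.18. Of the 24, 3 had another sign under at least 1 alternative: S100a10 in the library labelled Tle3cKO against WT (0.06 with equal totals, 0.004 after the length correction) and in Tle4cKO against that library (-0.06 with equal totals, -0.003 with upper-quartile scaling, -0.05 after the length correction), and S100a6 in the library labelled Tle3cKO against WT (0.01 with equal totals). S100a8 stayed above WT and S100a9 below it, with S100a8 in Tle4cKO between 0.31 and 0.35 and S100a9 between -0.34 and -0.29, and S100a4 in Tle4cKO lay between -0.58 and -0.54. The length correction left 5 of 8 genes below WT in the library labelled Tle3cKO. Genes with transcripts under 750 bases had medians of -0.0001 in Tle4cKO and -0.04 in the library labelled Tle3cKO against WT, and the 476 of them averaging at least 20 FPKM, as all 8 do, had 0.007 and -0.07. No paired analysis was possible because each group has 1 library and the labels carry no replicate numbers. With 1 library per genotype and unknown depth, differences of this size have no measured error.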
